A study of Mus musculus with 6 samples.

Results

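The genes described here are Il23r, Il17a, Il17f, Cd163l1, Ccr6, Il17ra and Il17rc, 7 of the 31253 genes in the deposited count matrices. They were picked by name, with earlier results of these data known. Their values in knockout against control T cells are therefore given as a description without a test. The samples were livers of 6 mice, with 1 library of single-cell RNA sequencing (10x Genomics 3′) per mouse. In the knockout group, 3 mice carried floxed Sting alleles and a Cre recombinase driven by the Cdh5 promoter (Stingfl/fl Cdh5-Cre+). In the control group, 3 mice carried the same floxed alleles without the recombinase (Stingfl/fl Cdh5-Cre-). Mice of both genotypes ate chow up to an age of 8 weeks, and all 6 then received a western diet with carbon tetrachloride (WD-CCl4) for 12 weeks, a regimen that produces fatty, inflamed and scarred livers (MASH). Sting encodes an adaptor that relays the detection of DNA in the cytosol, and the Cdh5 promoter is active in endothelium.

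IL-23 is a cytokine of myeloid cells. Its receptor consists of IL-23R, encoded by Il23r, and a chain shared with the IL-12 receptor, and it acts on type 17 lymphocytes. These include Th17 cells, a class of γδ T cells, MAIT cells and ILC3. They secrete IL-17A and IL-17F, which bind a receptor of the chains IL-17RA and IL-17RC on epithelial, stromal and myeloid cells and induce chemokines and antimicrobial proteins there. CCR6 guides type 17 lymphocytes and B cells toward the chemokine CCL20, and Cd163l1 encodes a scavenger receptor used as a marker of IL-17-producing γδ T cells in mice.

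On GRCm38 (GENCODE M21), Il23r (ENSMUSG00000049093) lies on the minus strand at chr6:67422932-67491855. Il17a (ENSMUSG00000025929) lies on the plus strand at chr1:20730905-20734496, and Il17f (ENSMUSG00000041872) on the minus strand at chr1:20777146-20790617. Cd163l1 (ENSMUSG00000025461) lies at chr7:140218267-140231145, Ccr6 (ENSMUSG00000040899) at chr17:8236043-8257141, Il17ra (ENSMUSG00000002897) at chr6:120463247-120487559 and Il17rc (ENSMUSG00000030281) at chr6:113471427-113483140, each on the plus strand. RefSeq's table (GRCm38.p6) held 7 windows of 300 bases, from 250 before to 50 after a start, for 6 of the 7 genes. The windows of Il23r, Il17a and Cd163l1 are shown because these genes had the largest shares of their positive cells in 1 T cell cluster (57.0%, 46.7% and 64.3%). They lie at chr6:67491806-67492105 (minus strand) for Il23r, chr1:20730655-20730954 (plus strand) for Il17a and chr7:140218017-140218316 (plus strand) for Cd163l1. The 50 bases from the start on stand in capitals and the 250 bases before it in lower case.
Il23r: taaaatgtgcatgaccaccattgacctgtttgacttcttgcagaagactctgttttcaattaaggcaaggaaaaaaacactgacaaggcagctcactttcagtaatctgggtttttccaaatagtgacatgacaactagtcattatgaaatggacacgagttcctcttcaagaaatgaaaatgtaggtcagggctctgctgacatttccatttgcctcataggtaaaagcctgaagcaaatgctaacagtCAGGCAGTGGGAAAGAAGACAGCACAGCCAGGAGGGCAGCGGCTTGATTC
Il17a: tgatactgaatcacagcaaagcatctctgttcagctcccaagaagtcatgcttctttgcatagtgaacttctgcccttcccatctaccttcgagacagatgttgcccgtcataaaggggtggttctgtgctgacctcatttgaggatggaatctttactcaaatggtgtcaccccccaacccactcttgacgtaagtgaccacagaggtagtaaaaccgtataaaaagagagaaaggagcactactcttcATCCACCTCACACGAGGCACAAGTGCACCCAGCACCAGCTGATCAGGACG
Cd163l1: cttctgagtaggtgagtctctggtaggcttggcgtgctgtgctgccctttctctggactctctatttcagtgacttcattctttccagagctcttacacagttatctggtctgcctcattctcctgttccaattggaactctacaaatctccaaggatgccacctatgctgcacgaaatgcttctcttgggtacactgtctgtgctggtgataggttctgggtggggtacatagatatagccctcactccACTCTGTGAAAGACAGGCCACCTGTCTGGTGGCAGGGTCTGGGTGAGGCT
These windows are reference sequence, and nothing measured here bears on their use in the cells.

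The 6 libraries held 55017937 to 73867890 UMIs (unique molecular identifiers, counts of single RNA molecules) and 4771 to 8856 cells each after filtering, 41744 cells in all. The labels name liver sinusoidal endothelial cells, but 15177 cells were T-like and 2343 endothelial-like. The targeted gene, Sting1, had 22.3, 12.7 and 22.2 CPM in knockout endothelial-like cells, against 27.9, 23.4 and 27.5 CPM in control endothelial-like cells (19.1 ± 5.51 CPM in knockout and 26.3 ± 2.53 CPM in control). In T-like cells Sting1 had 10.7, 11.7 and 10.3 CPM in knockout and 10.54, 9.84 and 11.4 CPM in control libraries (10.9 ± 0.717 CPM in knockout and 10.6 ± 0.781 CPM in control), which overlapped. Whether the 3′ reads of Sting1 lie in the deleted part was not tested. Cell types were named from fixed marker lists that held none of the 7 genes, and names end in "-like" because they rest on transcripts. A cell is called positive for a gene with at least 1 UMI, and a level in CPM is the gene's UMIs per 1000000 UMIs of those cells. Values after ± are SDs over 3 mice.

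Il23r was concentrated in a small number of T-like cells. Of the 1743 cells with an Il23r UMI, 1462 were T-like (83.9%), and these held 88.2% of its 12815 UMIs. A cluster of 1106 cells that scored highest on the markers of IL-17-type γδ T cells held 994 of the positive cells (57.0%) and 68.5% of the UMIs. The 570 Th17-like cells, in which Cd4 was detected in 57.5% of cells, held 307 positive cells (17.6%) and 15.6% of the UMIs. Treg-like cells held 105 positive cells (6.02%). The order of the levels over the 6 libraries together was 1482 CPM in IL-17-type gamma-delta-like cells, 642 CPM in Th17-like cells, 35.9 CPM in Treg-like cells and 8.03 CPM in conventional CD4-like cells. Every library's level in IL-17-type gamma-delta-like cells was above every library's level in Th17-like cells. B-like cells, which set the background, had 0.502 CPM and 0.149% positive cells at a median of 4842 UMIs per cell, against 5203 UMIs in T-like cells.

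**Figure D1:**
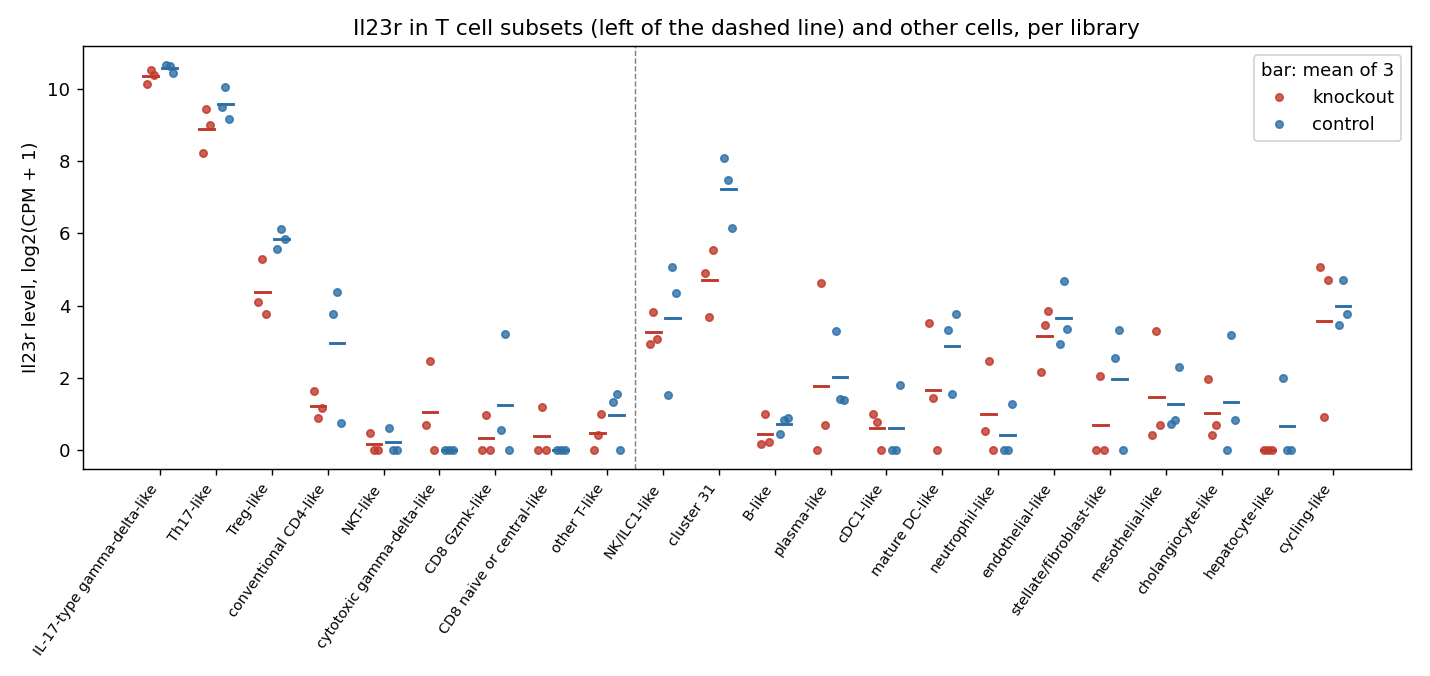
Il23r level per library, as log2(CPM + 1), in T cell subsets (left of the dashed line) and other cells. Points are libraries and bars are means of 3 knockout (left) or 3 control (right) libraries; IL-17-type gamma-delta-like cells (1482 CPM over all libraries) and Th17-like cells (642 CPM) lie highest.

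The label of the leading cluster was only partly borne out by its receptor genes. Finer clustering split it into a Trdc-rich part of 547 cells and a Trdc-poor part of 549 cells (Trdc encodes the constant region of the T cell receptor δ chain). Trdc was detected in 83.9% of cells of the Trdc-rich part and in 5.65% of the Trdc-poor part. Trac, which encodes the α chain constant region, was detected in 20.1% of cells of the Trdc-rich part and in 52.1% of the Trdc-poor part. The Trdc-poor part scored highest on the markers of MAIT cells, but Trav1, the V segment that defines these cells, was found in 0.364% of its cells. V segments lie far from the 3′ end that these libraries read, so this low share cannot decide whether they are MAIT cells. The Trdc-poor part held Zbtb16, an innate-like lymphocyte factor, in 87.4% of cells and Cd4 in 1.46%. Both parts were rich in Il23r, with 88.7% positive cells in the Trdc-rich part and 91.6% in the Trdc-poor part. The name IL-17-type gamma-delta-like covers the whole cluster throughout, so values under it are not those of γδ T cells alone.

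T-like cells of knockout mice held fewer Il23r-positive cells than those of controls. Positive cells made up 7.103%, 7.762% and 6.621% of T-like cells in the knockout libraries (exact 95% intervals 6.05 to 8.27%, 6.75 to 8.87% and 5.68 to 7.67%, counting error only). In the control libraries they made up 10.84%, 12.62% and 13.38% (9.89 to 11.9%, 11.5 to 13.9% and 11.4 to 15.6%). T-like cells had medians of 5617, 5295 and 5065.5 UMIs in knockout and 5382.5, 4178 and 5827.5 UMIs in control libraries. The positive shares did not overlap, with means of 7.16 ± 0.573% in knockout and 12.3 ± 1.30% in control T-like cells. Thinned to 2000 UMIs per cell, with 159 knockout and 626 control cells left out as too shallow, the shares were 5.42 ± 0.524% in knockout and 10.0 ± 1.12% in control.

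Over all T-like cells together, the UMIs per positive cell differed less. They were 6.24, 8.02 and 7.12 in knockout libraries and 8.53, 7.28 and 8.48 in control libraries (7.13 ± 0.886 in knockout and 8.10 ± 0.707 in control), and these groups overlapped. The Il23r level of all T-like cells combines the number of positive cells with the UMIs in each. It was 76.0, 109.3 and 87.4 CPM in knockout and 163.3, 205.7 and 185.3 CPM in control T-like cells, a ratio of means of 0.492. In T-like cells, 4.08% of 12696 genes tested were lower in knockout without overlap. Of the 7 genes, Il23r and Il17rc were so, and nothing is read from this count because the genes were chosen with this contrast known. By edgeR's quasi-likelihood test 0 of the 12696 genes passed an adjusted p of 0.05 in T-like cells, 842 had an unadjusted p under 0.05, and DESeq2 called 31 genes.

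**Figure D2:**
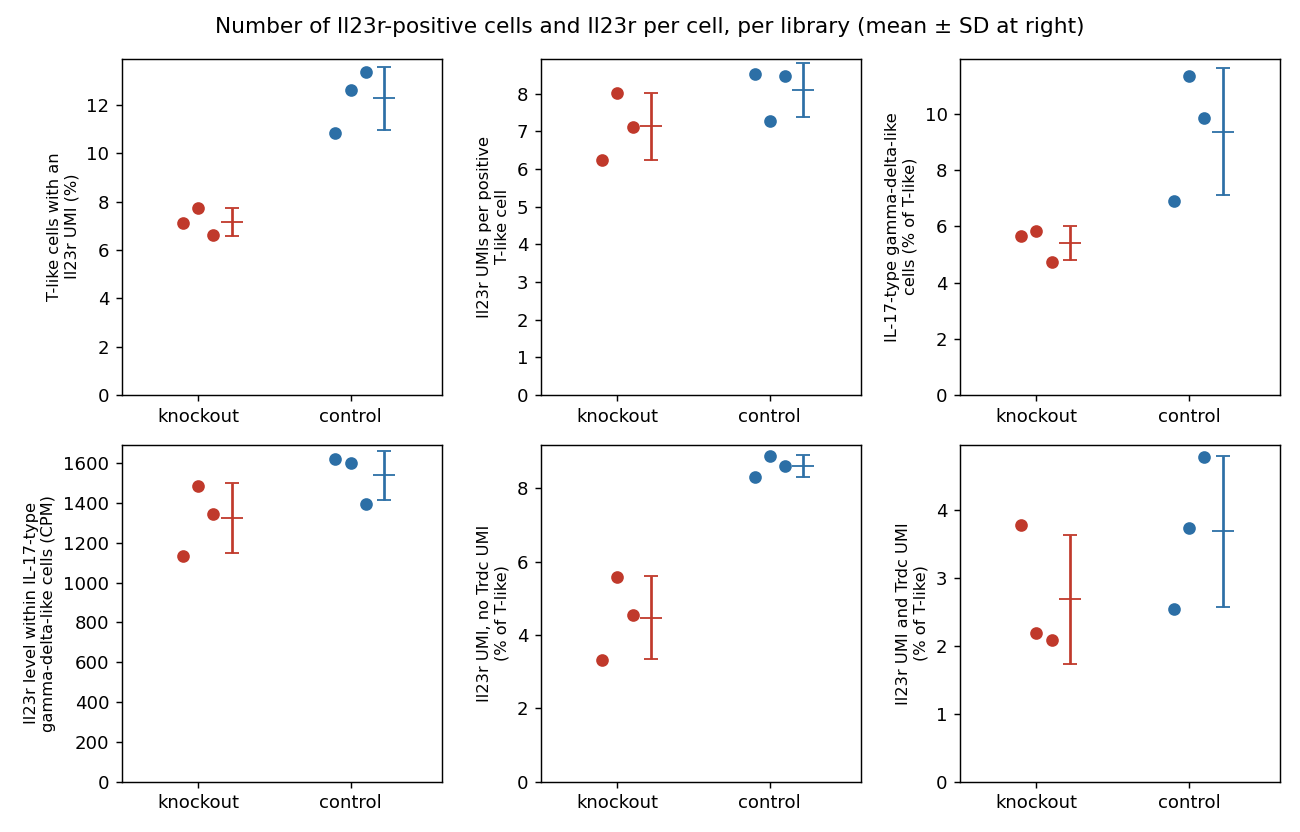
Numbers of Il23r-positive cells and Il23r per cell, 1 point per library with mean ± SD at the right of each group (knockout left, control right; linear axes from 0). The share of positive T-like cells (7.16% in knockout, 12.3% in control) and the share of positive cells without a Trdc UMI (4.47% in knockout, 8.59% in control) do not overlap, while the UMIs per positive T-like cell do.

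The number of cells in the Il23r-rich cluster moved with the gene. IL-17-type gamma-delta-like cells were 5.65%, 5.84% and 4.74% of T-like cells in knockout libraries and 6.91%, 11.4% and 9.85% in control libraries (5.41 ± 0.592% in knockout and 9.37 ± 2.26% in control). These shares did not overlap, but as shares of all cells (1.72%, 2.34% and 1.71% in knockout, 3.46%, 3.88% and 2.16% in control) they did. T-like cells with a Trdc UMI, whatever their cluster, were 6.39 ± 2.17% of T-like cells in knockout and 5.90 ± 1.63% in control libraries, which overlapped. Cluster membership itself rests on the clustered genes, so the cluster's shares are descriptions, and the separation of the groups depends on how the cells are defined.

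Within the cluster the positive share was 90.1%, 89.9% and 92.4% in knockout and 92.3%, 86.3% and 92.2% in control libraries. The UMIs per positive cell were 7.29, 9.83 and 8.23 in knockout and 10.1, 7.81 and 9.78 in control libraries. The Il23r level was 1136, 1484 and 1346 CPM in knockout and 1621, 1599.8 and 1395 CPM in control cells of the cluster (1322 ± 175 in knockout and 1539 ± 124 in control), and the groups overlapped on all 3 measures. After thinning to 2000 UMIs per cell the positive shares separated, at 73.4 ± 0.835% in knockout and 79.3 ± 2.93% in control cells, with 8 knockout and 78 control cells left out.

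Summed over subsets, T-like cells held 44.3, 62.2 and 47.2 Il23r UMIs per 100 cells in knockout libraries and 92.5, 91.8 and 113 in control libraries. Of the difference between the group means, 72.8% lay in the IL-17-type gamma-delta-like cluster, its Trdc-poor part included. Th17-like cells held 21.8% and the other T-like cells 5.35%. Th17-like cells were 3.64%, 1.96% and 3.73% of T-like cells in knockout and 5.79%, 1.95% and 6.02% in control libraries, which overlapped. Their Il23r UMIs per positive cell were 3.94, 5.87 and 5.60 in knockout and 7.46, 7.28 and 6.14 in control libraries, without overlap, from 31 to 43 positive cells per knockout library and 35 to 126 per control library. T-like cells outside both subsets had 2.69 ± 0.151 Il23r UMIs per positive cell in knockout and 3.82 ± 0.450 in control libraries, without overlap. They held 11 to 33 positive cells per knockout library and 10 to 49 per control library. In Treg-like cells, which suppress immune responses, Il23r had 16.1, 38.4 and 12.6 CPM in knockout and 46.3, 68.6 and 56.7 CPM in control libraries. These levels did not overlap, from 6 to 26 positive cells per knockout library and 9 to 29 per control library. The positive shares overlapped, at 1.74 to 6.15% in knockout and 6.12 to 8.50% in control libraries, as did the UMIs per positive cell, at 2.96 to 3.67 in knockout and 3.08 to 4.67 in control.

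Split by Trdc, the groups separated among positive cells without it and overlapped among those with it. T-like cells with an Il23r UMI and no Trdc UMI were 3.32%, 5.57% and 4.53% of T-like cells in knockout libraries and 8.29%, 8.88% and 8.60% in control libraries (4.47 ± 1.13% in knockout and 8.59 ± 0.297% in control), without overlap. Those with both were 3.79%, 2.20% and 2.09% in knockout and 2.55%, 3.73% and 4.78% in control libraries (2.69 ± 0.951% in knockout and 3.69 ± 1.12% in control), which overlapped. The clusters gave the same order, with the Trdc-poor part at 1.31%, 3.10% and 2.21% of T-like cells in knockout and 3.75%, 6.27% and 4.78% in control libraries. The Trdc-rich part was 4.30%, 2.70% and 2.49% in knockout and 3.11%, 4.92% and 5.07% in control libraries, which overlapped. No test compared the Trdc-poor with the Trdc-rich difference.

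Il23r was also found in a cluster of 373 unnamed cells, cluster 31, led by genes that include Il1rl1 (the IL-33 receptor), Arg1, Calca and Il17rb (the IL-25 receptor). Its positive cells were 2 of 52, 1 of 81 and 2 of 52 in knockout libraries and 8 of 59, 14 of 97 and 3 of 32 in control libraries. The shares were 2.98 ± 1.51% in knockout and 12.5 ± 2.70% in control, without overlap. In edgeR's test across this cluster's 4545 genes the log2 fold change was -2.71 (SE 0.544) with an adjusted p of 0.288, where 4.88% of genes were lower without overlap. The cluster was chosen after its values were seen. Cells with Cd3e, a T cell gene, made up 19.2%, 32.1% and 7.69% of it in knockout and 16.9%, 4.12% and 0% in control libraries (0 of 32 cells in control 3, which allows up to 9.38%), and their part in the result was not tested.

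Il23r was rare in most cells other than T-like cells. Unnamed cluster 26, led by B cell genes and with T cell markers second, had 71.1% of its 574 cells removed as doublets, and 15 of the 166 kept were positive (9.04%, 120 CPM). In the endothelial-like cluster with most positive cells, 25 of 1186 cells had an Il23r UMI, and 199 of its 212 UMIs lay in the 97 cells that also held UMIs of T cell genes. Among the 1089 endothelial-like cells of that cluster without such UMIs, 0.643% were positive. Mature DC-like cells reached 5.37% positive at 1.69 UMIs per positive cell.

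Il17a, the signature cytokine of the pathway, was detected in 653 cells, of which 560 were T-like. IL-17-type gamma-delta-like cells held 305 of them and Th17-like cells 237. Th17-like cells held the larger part of its 5428 UMIs, 45.4% against 41.8% in IL-17-type gamma-delta-like cells. Among IL-17-type gamma-delta-like cells, 28.5% of Il23r-positive cells and 19.6% of the others had an Il17a UMI. Among Th17-like cells, 48.2% of Il23r-positive cells and 33.8% of the others did. Both pairs of shares pool all libraries of both genotypes, and depth was not matched. Whether Il23r and Il17a go together in cells of equal depth was not tested.

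Il17a stood higher in knockout than in control IL-17-type gamma-delta-like cells. It had 757, 485 and 455 CPM in knockout libraries and 272, 264 and 302 CPM in control libraries (565 ± 167 in knockout and 279 ± 19.9 in control, ratio of means 2.02). No knockout library was as low as a control library, and 7.91% of the 7207 genes tested there were higher without overlap. The share of Il17a-positive cells overlapped, at 38.8%, 24.8% and 30.5% in knockout and 25.1%, 25.0% and 30.1% in control. Thinned to 2000 UMIs per cell, with 8 knockout and 78 control cells left out, the share did not overlap, at 28.9%, 21.5% and 24.3% in knockout and 17.3%, 19.4% and 16.8% in control. The UMIs per positive cell did not overlap in either form. They were 11.3, 11.6 and 8.42 in knockout and 6.22, 4.45 and 6.48 in control before thinning, and 5.49, 4.23 and 4.29 in knockout and 3.00, 2.87 and 3.35 in control after it.

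The UMIs per positive cell separated in both parts of the cluster as well, while the Il17a-positive shares overlapped. These shares were 37.7 ± 3.31% in knockout and 38.7 ± 2.88% in control cells of the Trdc-rich part. In the Trdc-poor part they were 24.1 ± 7.85% in knockout and 16.8 ± 6.33% in control. The Trdc-poor part averaged 2.20% of T-like cells in knockout and 4.93% in control, the Trdc-rich part 3.16% and 4.37%. The part of this mix in the cluster's Il17a values was not tested. The UMIs per Il17a-positive cell were 10.95 ± 3.39 in knockout and 6.09 ± 1.21 in control cells of the Trdc-rich part, and 9.35 ± 1.98 in knockout and 4.86 ± 1.24 in control cells of the Trdc-poor part, neither with overlap. In CPM the Trdc-rich part had 731 ± 185 in knockout and 446 ± 37.7 in control without overlap, while the Trdc-poor part (385 ± 187 in knockout and 143 ± 54.5 in control) overlapped.

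Th17-like cells ran the other way in UMIs per positive cell, but not in the share of positive cells. Their Il17a-positive share was 43.5 ± 13.5% in knockout and 37.8 ± 7.83% in control libraries, with overlap. Their UMIs per Il17a-positive cell were 8.83, 8.59 and 8.03 in knockout and 9.41, 14.2 and 18.4 in control libraries, without overlap. Their Il17a level was 958, 557 and 596 CPM in knockout and 685, 888 and 1323 CPM in control libraries, with overlap. In all T-like cells Il17a had 75.6, 39.9 and 43.5 CPM in knockout and 59.9, 47.0 and 110 CPM in control libraries, which overlapped. The difference between these subsets was not tested.

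Among the 7207 genes tested in IL-17-type gamma-delta-like cells, 3 passed the edgeR test (0.0416%), all lower in knockout. They were named after their values were seen. Gclc, which encodes a glutathione synthesis enzyme, averaged 234 ± 42.2 CPM in knockout and 449 ± 61.5 CPM in control (log2 fold change -0.99, adjusted p 0.0161). Hspa1b, an inducible heat shock protein gene, averaged 2281 ± 329 CPM in knockout and 4879 ± 856 CPM in control (log2 fold change -1.14, adjusted p 0.0161), and Wdr88 averaged 18.5 ± 7.12 CPM in knockout and 62.3 ± 17.3 CPM in control (log2 fold change -1.85, adjusted p 0.0161). Their part in the values of Il17a and Il23r was not tested. Without knockout 3, 0 genes passed, and without knockout 1, 11 did.

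Outside T-like cells, the 7 genes could be tested in 10 classes with edgeR, and 0 of 24 tests passed (3 had an unadjusted p under 0.05, and DESeq2 called 0). Over all genes of these classes 7 of 102328 passed (0.00684%). The smallest adjusted p was 0.0739, for Il17a in mesothelial-like cells. It rested on 4 knockout cells with 11, 14 and 27 UMIs per positive cell by library, against 5 control cells with 1 UMI each (1.86 ± 0.0590 CPM in knockout and 0.210 ± 0.0869 CPM in control, log2 fold change 3.08, edgeR). In mesothelial-like cells 14.3% of genes were higher in knockout without overlap. Il17a passed there when genes with at least 1 UMI were all kept (edgeR adjusted p 0.00584) and without control 1 (0.0435). In cycling-like cells (46.8 ± 29.0 CPM in knockout, 13.8 ± 3.65 CPM in control) it passed without knockout 2 (0.00034). In mesothelial-like cells Il17a met the count filter only through the knockout libraries. The lowest knockout level in cycling-like cells, 13.5 CPM, lay within the control range of 11.5 to 18.0 CPM. Cycling-like cells also scored second on T cell markers. Nothing is read from these passes.

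Il17f, the second ligand, had a wider and lower distribution. It was detected in 610 cells, of which 216 were endothelial-like (35.4%), 162 T-like and 73 cycling-like. Its level was highest in Th17-like cells at 46.7 CPM and 9.12% positive, followed by IL-17-type gamma-delta-like cells at 19.2 CPM and 4.25%. Endothelial-like cells had 9.22% positive cells and 11.9 CPM, with 1.35 UMIs per positive cell. The share was 9.18% among endothelial-like cells of the largest such cluster without UMIs of T cell genes. Mature DC-like and neutrophil-like cells had no Il17f UMI, which allows up to 1.01% of 298 and 0.323% of 929 cells.

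Endothelial-like Il17f differed widely between mice. Its positive share was 4.25%, 9.09% and 10.8% in knockout and 20.5%, 10.9% and 7.01% in control libraries. The levels were 9.78 ± 3.42 CPM in knockout and 18.2 ± 9.68 CPM in control, with overlap, and edgeR gave a log2 fold change of -0.88 with an adjusted p of 0.880. In Th17-like cells Il17f had 63.7, 30.5 and 57.3 CPM in knockout and 51.4, 14.7 and 32.0 CPM in control libraries, from 3 to 21 positive cells in a library, and the groups overlapped.

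Cd163l1 marked the IL-17-type gamma-delta-like cluster more closely than the other genes. That cluster held 403 of its 627 positive cells (64.3%) and 85.1% of its 3506 UMIs. Cd163l1 was among the leading genes of the cluster, so this is a description. It was detected in 67.5% of cells of the Trdc-rich part and 5.46% of the Trdc-poor part, while Il23r was high in both.

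Cd163l1 varied most among knockout mice. Its positive share of the cluster was 66.1%, 30.2% and 22.9% in knockout and 35.8%, 35.2% and 32.0% in control libraries. Its level was 1073, 436 and 318 CPM in knockout and 407, 436 and 554 CPM in control libraries. Knockout 1, the highest, was also the library with the largest Trdc-rich share of T-like cells among the knockouts (4.30%). Within the Trdc-rich part Cd163l1 averaged 996 ± 376 CPM in knockout and 984 ± 111 CPM in control.

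Ccr6 was mainly a B cell transcript in these livers. B-like cells held 1384 of its 2138 positive cells (64.7%), IL-17-type gamma-delta-like cells 230, Th17-like cells 113 and Treg-like cells 102. Levels in the first 3 lay close together, with 57.9 CPM in IL-17-type gamma-delta-like cells, 48.6 CPM in Th17-like cells and 47.6 CPM in B-like cells. In IL-17-type gamma-delta-like cells it had 22.9, 110.4 and 43.5 CPM in knockout and 50.8, 55.8 and 60.1 CPM in control libraries, with overlap. In B-like cells it had 45.5, 53.7 and 58.5 CPM in knockout and 41.2, 36.1 and 45.9 CPM in control libraries, which overlapped (edgeR log2 fold change 0.33, SE 0.134, adjusted p 0.779). Among Th17-like cells, Ccr6 was detected in 28.0% of Il23r-positive and 10.3% of Il23r-negative cells. Among IL-17-type gamma-delta-like cells it was detected in 21.1% of Il23r-positive and 17.9% of Il23r-negative cells. These shares pool the 6 libraries, and depth was not matched.

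**Figure D3:**
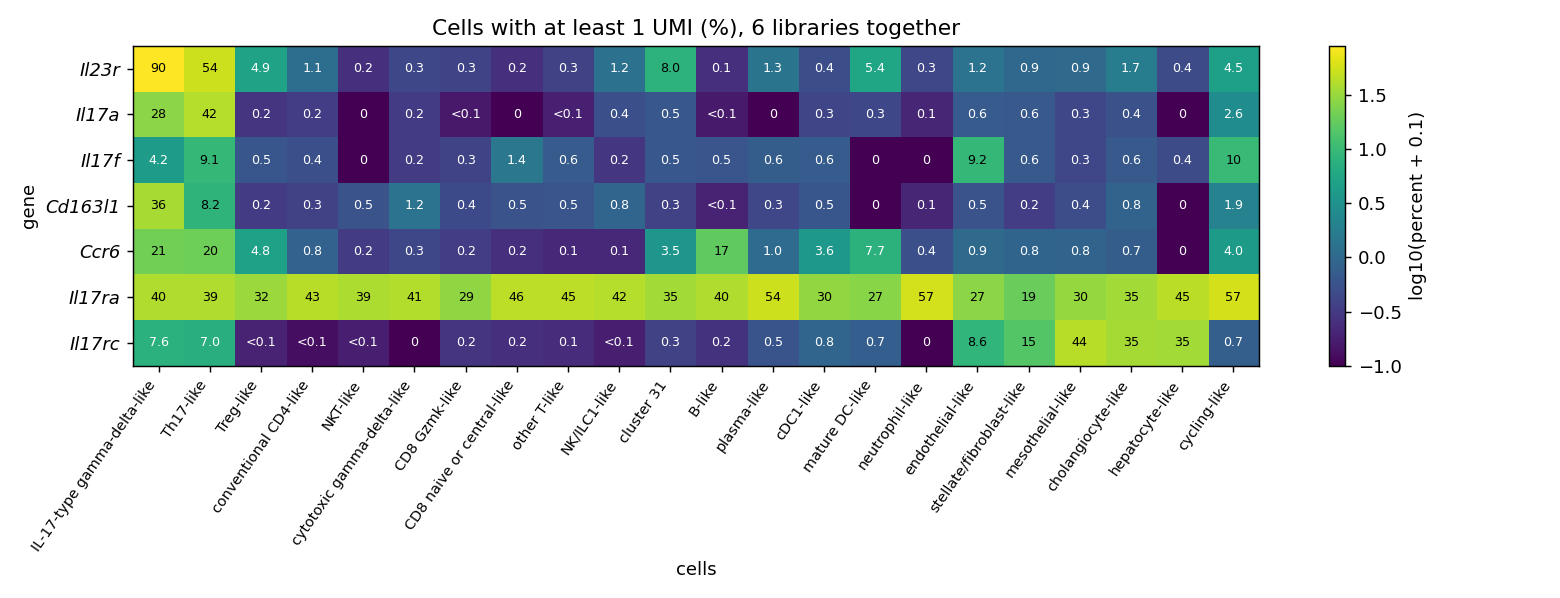
Percent of cells with at least 1 UMI of each of the 7 genes by cell group, 6 libraries together; colour is log10(percent + 0.1) and the number in each square is the percent. Il23r and Cd163l1 concentrate in IL-17-type gamma-delta-like cells (89.9% and 36.4%), Il17a in these and Th17-like cells, Ccr6 also in B-like cells (17.2%), and Il17ra is detected in every group shown.

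The receptor chains of IL-17 differed in breadth. Il17ra, the chain shared by several IL-17 receptors, was detected in 16207 cells of all groups. Its level was 209 CPM in neutrophil-like cells, 115.6 CPM in B-like cells, 112.2 CPM in T-like cells, 99.6 CPM in NK/ILC1-like cells, 45.0 CPM in endothelial-like cells, 22.7 CPM in cholangiocyte-like cells and 19.8 CPM in mesothelial-like cells. In the groups richest in Il17rc it was still detected, in 34.6% of cholangiocyte-like, 30.2% of mesothelial-like and 44.9% of hepatocyte-like cells. B-like and T-like cells did not differ beyond their spread, while the mean of neutrophil-like cells, in knockout and in control, stood above both.

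Il17rc, which completes the receptor, was detected in 2803 cells, 1203 of them mesothelial-like (42.9%) and 872 cholangiocyte-like. Its level was 29.4 CPM in mesothelial-like, 24.7 CPM in cholangiocyte-like, 23.2 CPM in hepatocyte-like, 18.2 CPM in stellate/fibroblast-like and 9.19 CPM in endothelial-like cells, against 1.76 CPM in T-like cells. In neutrophil-like cells it was not detected, which allows up to 0.323% of 929 cells. Type 17 cells were an exception among T-like cells, at 14.9 CPM in IL-17-type gamma-delta-like and 14.2 CPM in Th17-like cells. Levels of Il17ra and Il17rc were not compared with each other per cell, since the 3′ counts of different genes are captured with unequal efficiency.

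Neither chain passed the edgeR test between the genotypes outside T-like cells, in 10 classes for Il17ra and 4 for Il17rc (0 unadjusted p values under 0.05). Il17rc averaged 31.1 ± 4.93 CPM in knockout and 28.1 ± 1.90 CPM in control mesothelial-like cells, 25.6 ± 2.28 CPM in knockout and 24.9 ± 0.840 CPM in control cholangiocyte-like cells, and 9.95 ± 2.08 CPM in knockout and 8.58 ± 0.372 CPM in control endothelial-like cells. Il17ra was 43.3 ± 2.77 CPM in knockout and 46.8 ± 2.71 CPM in control endothelial-like cells. It was 21.37, 20.81 and 22.01 CPM in knockout and 29.2, 23.8 and 22.7 CPM in control cholangiocyte-like cells, lower without overlap, as were 8.73% of the genes tested there (edgeR log2 fold change -0.18, adjusted p 0.730).

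In T-like cells Il17rc had 0.881, 1.58 and 1.19 CPM in knockout and 1.98, 2.74 and 2.19 CPM in control libraries (1.22 ± 0.352 in knockout and 2.30 ± 0.390 in control). The positive cells numbered 11 to 21 per knockout library and 14 to 40 per control library, nearly all with 1 UMI. Within IL-17-type gamma-delta-like cells Il17rc overlapped between the groups (12.4 ± 5.45 CPM in knockout and 16.0 ± 4.96 CPM in control). In the Trdc-rich part it was 10.2 ± 3.86 CPM in knockout and 19.1 ± 4.73 CPM in control, without overlap. In the Trdc-poor part it was 15.5 ± 6.21 CPM in knockout and 13.3 ± 6.52 CPM in control, with overlap.

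A cluster of 335 unnamed cells, cluster 34, led by the lymphatic genes Ccl21a, Mmrn1 and Lyve1, had the widest gap in Il17ra and was chosen after its values were seen. Il17ra had 54.9, 72.7 and 94.0 CPM in its knockout cells and 145, 110 and 113 CPM in its control cells. The groups did not overlap, as for 5.89% of the genes lower there, and edgeR gave a log2 fold change of -0.79 (SE 0.235) with an adjusted p of 0.202.

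**Figure D4:**
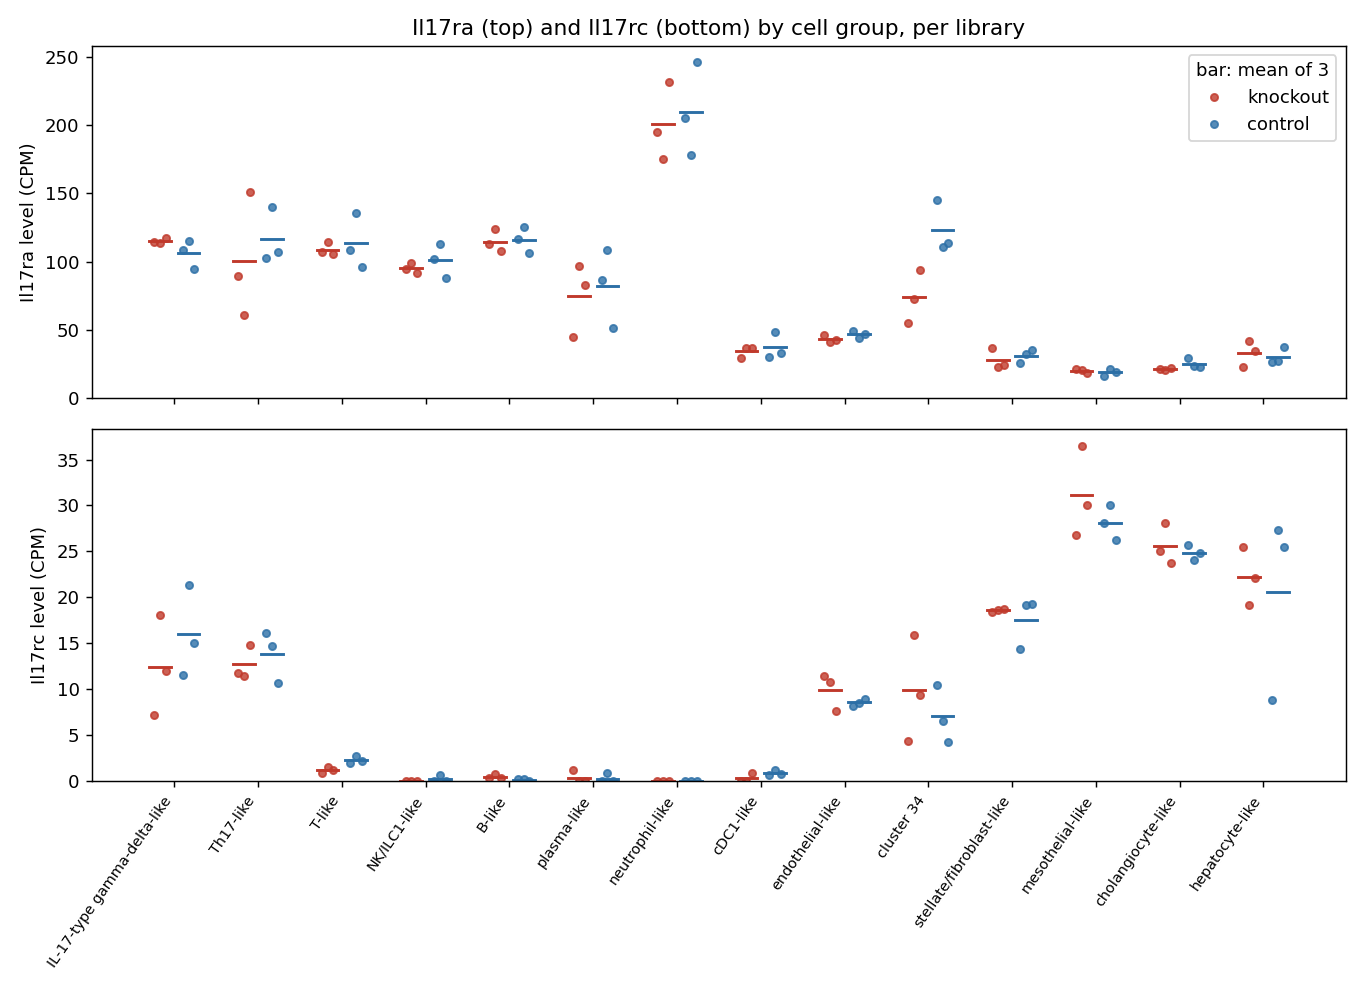
Levels of Il17ra (top) and Il17rc (bottom) in CPM by cell group; points are libraries and bars are means of 3 (knockout left, control right). Il17ra is highest in neutrophil-like cells (209 CPM over all libraries), in which Il17rc was not detected, and Il17rc is highest among named groups in mesothelial-like cells (29.4 CPM).

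The other genes of the pathway were followed in 4 lists chosen by name. In T-like cells, 0 of 13 tested ligands and receptors, 0 of 37 type 17 genes, 0 of 26 signalling genes and 0 of 16 IL-17-induced genes passed the edgeR test in either direction. Their median log2 fold changes were -0.25, -0.12, -0.06 and -0.13, beside 0.00 over all genes. Il1r1, the IL-1 receptor of type 17 cells, averaged 126 ± 16.5 CPM in knockout and 233 ± 66.2 CPM in control T-like cells (log2 fold change -0.90, adjusted p 0.578). Il17re, the receptor of IL-17C, averaged 6.97 ± 0.783 CPM in knockout and 12.2 ± 2.29 CPM in control (adjusted p 0.578). Il22, another cytokine of these cells, averaged 1.01 ± 0.950 CPM in knockout and 3.96 ± 1.57 CPM in control (adjusted p 0.736). Furin, a protease, averaged 125 ± 15.0 CPM in knockout and 184 ± 19.5 CPM in control (adjusted p 0.539). None of these groups overlapped, and none passed the test. These genes were named for the smallest p of their lists, so nothing is read from their gaps. Lower without overlap were 3 of 13 ligands and receptors, 5 of 37 type 17 genes, 0 of 26 signalling genes and 3 of 16 IL-17-induced genes. Over all genes this share was 4.08%. Higher without overlap was 1 of the ligands and receptors and 0 genes of the other lists.

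Within IL-17-type gamma-delta-like cells, 0 of 9, 0 of 36, 0 of 23 and 0 of 9 tested genes of the same lists passed, with medians of -0.17, 0.09, -0.15 and -0.43 beside 0.00 over all genes. Il1r1 was close there, at 1917 ± 203 CPM in knockout and 2111 ± 347 CPM in control. Traf5, a signalling adaptor, averaged 51.1 ± 12.8 CPM in knockout and 28.4 ± 4.81 CPM in control (log2 fold change 0.80, adjusted p 0.519). Cxcl2, a neutrophil chemokine, averaged 322 ± 131 CPM in knockout and 709 ± 260 CPM in control (log2 fold change -1.18, adjusted p 0.522). Nfkbiz, an NF-κB cofactor induced by IL-17, averaged 400.1 ± 102 CPM in knockout and 553 ± 34.7 CPM in control (adjusted p 0.555).

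Genes of the IL-17-induced list were also tested in 4 classes with both receptor chains and in neutrophil-like cells, which had Il17ra and no Il17rc UMI, and 0 passed the edgeR test. The list's median log2 fold change was -0.56 over 18 genes in endothelial-like cells, -0.47 over 20 in mesothelial-like, -0.24 over 19 in stellate/fibroblast-like, -0.26 over 17 in cholangiocyte-like and -0.27 over 16 in neutrophil-like cells, beside medians near 0.00 over all genes. An unadjusted p under 0.05 was found for 7 of these genes in mesothelial-like, 4 in endothelial-like, 3 in cholangiocyte-like, 1 in neutrophil-like and 0 in stellate/fibroblast-like cells. Over all genes tested, such a p was found for 17.8% in mesothelial-like, 5.04% in endothelial-like, 8.31% in cholangiocyte-like, 7.37% in neutrophil-like and 1.89% in stellate/fibroblast-like cells. Lcn2, an antimicrobial protein gene induced by IL-17, averaged 41.6 ± 15.4 CPM in knockout and 12.9 ± 4.43 CPM in control mesothelial-like cells (edgeR log2 fold change 1.67, adjusted p 0.150). Cebpb, a transcription factor of the response, averaged 161 ± 23.2 CPM in knockout and 227 ± 6.75 CPM in control endothelial-like cells (log2 fold change -0.54, adjusted p 0.880). Lif averaged 13.3 ± 2.19 CPM in knockout and 22.7 ± 0.840 CPM in control cholangiocyte-like cells (log2 fold change -0.73, adjusted p 0.492). Lcn2, Cebpb and Lif were named from the smallest p of the list in their class, so nothing is read from their gaps. Lcn2 ran against the list's median of -0.47 in mesothelial-like cells.

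Likeness of pattern was measured as Pearson's r of log2(CPM + 1) over 32 cell groups, among 11938 genes with at least 20 CPM in one of them. The groups share libraries and many were at or near 0, so r is a description. The genes most like Il23r were Olfr60 (0.916), Cdh10 (0.907), 1700012B07Rik (0.904), Ppp1r14c (0.887), Aqp3 (0.866), Il17a (0.865), 5830411N06Rik (0.829) and Gm9961 (0.820). Those most like Il17a were 1700012B07Rik (0.949), 5830411N06Rik (0.917), Ppp1r14c (0.897), Gm9961 (0.894) and Olfr60 (0.879). Il17f was most like Il17a (0.760), Mbd2 (0.726), 1700012B07Rik (0.720), 5830411N06Rik (0.703) and Vax2 (0.697). Cd163l1 was most like 5830411N06Rik (0.848), Cdh10 (0.848), Gm9961 (0.842), Tdrd9 (0.828) and Kcnc1 (0.809). The list was 8 genes long for Il23r and 5 for each of the others, and the remaining 3 genes had none.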

How the data were processed

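Livers of 3 knockout and 3 control mice were profiled, with 1 library per mouse. The deposited matrices hold raw UMI counts per gene and barcode; other deposited columns are gene names and barcodes, whose unit is other than a measurement. Per the submitters' processing notes Cell Ranger 7.1.0, Seurat 4.1.1 and mm10 were used; their settings are not given in the sources used here. The genes and lists were chosen with earlier results of these data known.

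Of 44656 barcodes, 42682 passed filters on genes detected (300 or more) and on mitochondrial UMIs (20% or less). Scrublet scores over 0.2667, the median of the automatic thresholds of 4 libraries, removed 938 cells. Leiden clustering (scanpy 1.11.5, leidenalg 0.10.2, Python 3.11.15; 3000 variable genes, 40 components, 20 neighbours) gave 48 clusters at resolution 2, a resolution chosen over 1 after the clusters were seen. Clusters were named where a marker list scored at least 0.5 with a margin of 0.3; T-like cells were clustered again for subsets. Library pairs shared 0.103 to 0.311% of barcodes. Cells of 1 mouse are not replicates, so counts were summed per library and class and tested with edgeR 4.0.16 (R 4.3.3; TMM, filterByExpr, quasi-likelihood test, Benjamini-Hochberg within a class, threshold 0.05) where every library had 20 cells; DESeq2 1.42.0 was run beside it. Scripts were tested on simulated counts. CPM is UMIs over all UMIs of the summed cells. Intervals and limits (3 counts) cover counting error only. Named genes are the 7 genes in every class, up to 3 of smallest p per list where none passed, and the closest genes by likeness. Some results are not reported here, among them 1 other definition of the IL-17-type gamma-delta-like cells, under which knockout and control shares overlapped and their means were close.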

Additional observations from a re-analysis of the deposited data

How the results depend on the processing

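The share of T-like cells with Il23r (-5.12 percentage points, knockout minus control), its UMIs per positive cell, the IL-17-type gamma-delta-like share and Il23r's level there kept their sign under the alternatives given here, including doublets kept, thinning and positivity at 2 UMIs. Leaving out each library gave -5.84 to -4.57 points, -1.41 to -0.528 UMIs, -5.19 to -2.97 points and a log2 ratio of -0.31 to -0.12. Chosen after seeing the data, the difference in T-like cells with Il23r and a Trdc UMI was -0.999 points, and with at least 5 Il23r UMIs -3.38 points. The IL-17-type gamma-delta-like share differed by -3.96 points, and its Trdc-rich part, which holds fewer cells by construction, by -1.20 points with overlap between the groups, so this difference depends on how the cells are defined. Genes called in T-like cells were 0 with edgeR, 31 with DESeq2, 17 with every gene with at least 1 UMI, and 0 to 1 without a library; in IL-17-type gamma-delta-like cells they were 3 with edgeR, 13 with DESeq2, 42 with every such gene, and 0 to 11 without a library. Calls of the 7 genes outside T-like cells were 0, and 1 with every gene kept and 0 to 1 without a library. The labels do not say whether the replicate numbers pair the mice, and same-number correlations were mixed (-0.240 to 0.333 over 15 pairs, 6 over 0.1). For replicate 2 they were 0.269 in T-like, 0.165 in IL-17-type gamma-delta-like, 0.333 in endothelial-like, 0.239 in B-like and -0.0156 in mesothelial-like cells. A replicate block gave 12 calls in T-like cells and 6 in IL-17-type gamma-delta-like cells, and none of the 7 genes outside T-like cells. These counts rest on 3 mice per group, with 118 to 149 IL-17-type gamma-delta-like cells per knockout library and 103 to 344 per control library.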
